A study of Mus musculus with 4 samples.

Results

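De novo lipogenesis, the synthesis of fatty acids from acetyl-CoA, was followed through 10 named genes in mouse liver RNA-seq. The genes are the enzymes Acly, Me1, Acaca, Acacb, Fasn, Elovl6 and Scd1 and the regulators Srebf1, Mlxipl and Thrsp. They were set by name, with no threshold on their values but with earlier results of these data known. The number of them called is therefore a description and no independent support. All 10 were found among the 46603 Ensembl genes of the count table. The 4 livers came from HuRflox/flox mice, labelled male, of the C57BL/6 J strain, so the controls carried the floxed alleles too. Mice 1 and 2, labelled control, had received AAV8 with a GFP cassette, and mice 3 and 4, labelled HuR hKO, had received AAV8 with Cre recombinase. Both viruses used the thyroxine-binding globulin promoter (TBGP), which drives expression in hepatocytes and leaves the gene of other liver cells intact. Each mouse was kept for 4 weeks on WDSW, a Western diet with sugar in the drinking water, and their age is not given in the sources used here. In RNA from whole liver, fewer cells of a type and less RNA per cell cannot be told apart.

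In lipogenesis, Acly makes cytosolic acetyl-CoA from citrate, the acetyl-CoA carboxylases turn it into malonyl-CoA, and Fasn builds palmitate from these units with NADPH that Me1 helps to supply. Elovl6 then lengthens the chain and Scd1 adds a double bond. In liver the pathway is driven at the level of transcription by SREBP-1, the product of Srebf1, which responds to insulin and LXR, and by ChREBP, the product of Mlxipl, which responds to sugars.

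The targeted gene was examined first, because it checks the labels. Elavl1 (ENSMUSG00000040028), which encodes the RNA-binding protein HuR, was counted 377 times in control mouse 1, 347 times in control mouse 2, and 541 and 648 times in mice 3 and 4 of the group labelled HuR hKO. Scaled for library size with TMM factors, this was 28.4 and 25.9 CPM (counts scaled to a common library size) in control and 37.7 and 34.4 CPM in HuR hKO. The gene was thus higher in each mouse of the group labelled HuR hKO than in either control, which goes against the label. Its log2 fold change was 0.41 ± 0.14 SE (edgeR unadjusted p = 0.016, adjusted p = 0.545). The counts are totals over the gene, so reads from exons outside a floxed part would be included, and the position of that part is not given in the sources used here. Reads of Ccl25 on the opposite strand, with 33 to 57 counts in a library, share 204 bases of exon with Elavl1. The directions given for the lipogenic genes therefore refer to the labels and not to a measured loss of HuR mRNA.

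The libraries held between 13032095 and 19715577 counts, with the largest total in HuR hKO mouse 4, and mitochondrial genes took 6.56 to 7.64% of them. In these livers the 8 hepatocyte markers, albumin among them, summed to 66978 to 76740 CPM. The test was edgeR's quasi-likelihood test over 13001 genes, and with 2 mice a group an exact permutation test of one gene cannot go below p = 0.333. Over all genes tested, 3 had an adjusted p under 0.05 and 966 an unadjusted p under 0.05.

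None of the 10 lipogenic genes passed an adjusted p under 0.05 in edgeR, where 0.0154% of all genes tested were higher in HuR hKO and passed. At an unadjusted p under 0.05, 4 of the 10 (Acly, Fasn, Acaca and Elovl6) were higher in HuR hKO, against 4.04% of all genes tested, and 0 of the 10 were lower, against 3.39%. Their unadjusted p in edgeR were 0.000203 (Acly), 0.000404 (Fasn), 0.0122 (Acaca) and 0.0215 (Elovl6). DESeq2 and limma-voom gave the same counts of 4 higher and 0 lower at an unadjusted p. In either direction, 4.42% of all genes tested had an unadjusted p under 0.05 with DESeq2 and 7.55% with limma-voom. At an adjusted p, limma-voom called 0 of the 10, and DESeq2 called 2, Acly and Fasn, against 0.385% of all genes as higher. edgeR without a filter on low counts also called Acly and Fasn, against 0.373% of the 21432 genes then tested. The CPM of both HuR hKO libraries lay above both controls for 6 of the 10 genes, against 19.3% of all genes tested, and below both controls for 1 (Mlxipl), against 18.8%. The count above both controls was 5 under each other scaling, each other filter and DESeq2, and 6 with limma-voom. The median log2 fold change of the 10 genes was 0.46, while the median over all genes tested was 0.002.

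The study's own threshold was a fold change of at least 1.8 with an unadjusted p under 0.05. None of the 10 genes met it in edgeR or DESeq2, where 1.21% of all genes tested met it as higher in edgeR, and the fitted change of Fasn lay just under it. With limma-voom Fasn met it, against 1.22% of genes. Which genes met it changed with the mice included. Without control mouse 1, Fasn met it (1.65% of genes did). Without control mouse 2, Acacb, Elovl6 and Me1 met it (2.02% of genes did), and Acacb also passed an adjusted p under 0.05, as 0.221% of genes did as higher. Without HuR hKO mouse 4, Fasn and Me1 met it, against 0.878% of genes.

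The count at an unadjusted p under 0.05 moved too. Without the filter on low counts, 6 of the 10 genes were higher, with Acacb and Me1 added, against 3.28% of all genes in that fit. It was 3 without control mouse 1 (Acly, Fasn and Acaca), against 3.5% of genes, and 6 without control mouse 2, with Acacb and Me1 added, against 5.49%. It was 3 without HuR hKO mouse 3 (Acly, Fasn and Thrsp), against 2.95%, and 5 without HuR hKO mouse 4, with Me1 added, against 1.93%. Acly and Fasn were among the genes counted in each of these fits.

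**Figure D1:**
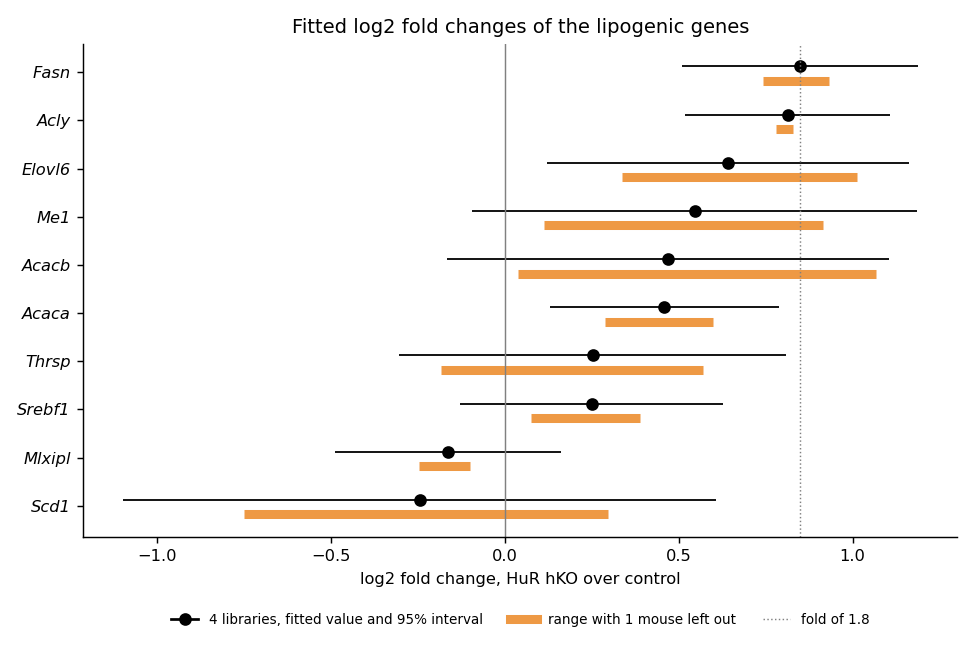
Fitted log2 fold change of each lipogenic gene, HuR hKO over control (horizontal axis), with its 95% interval from 4 libraries (black) and the range of the value when 1 mouse is left out (orange). The dotted line marks a fold of 1.8. The intervals of Fasn, Acly, Elovl6 and Acaca lie above 0, and the orange bars of Acly and Fasn are short while that of Scd1 runs from -0.75 to 0.30.

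Acly, ATP citrate lyase, makes the acetyl-CoA that the pathway starts from (ENSMUSG00000020917, GRCm38 chr11:100476353-100528000, minus strand). It had 2029 and 2081 counts in control mice 1 and 2 and 3788 and 5216 counts in HuR hKO mice 3 and 4. On the TMM-scaled level these were 152.7 and 155.4 CPM in control and 264.3 and 276.9 CPM in HuR hKO. The groups did not overlap, and the gap between the 2 mice of a group was small in both groups. The mean was 154 ± 1.9 CPM (SD, n = 2) in control and 271 ± 8.9 CPM (SD, n = 2) in HuR hKO, which is 1.76 times as high. The log2 fold change was 0.81 ± 0.13 SE, with a 95% interval from 0.52 to 1.11 and an edgeR adjusted p of 0.103. Leaving out 1 mouse moved it only between 0.78 and 0.83. The adjusted p was 0.00014 with DESeq2 and 0.0042 without the filter, within a range of 0.00014 to 0.148 over the settings that kept all mice and of 0.123 to 0.546 with 1 mouse left out.

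The sequence before the start site of Acly is shown because Acly had the smallest unadjusted p of the 10 genes. It is the 250 bases upstream of the start in RefSeq (GRCm38.p6, chr11:100528001-100528250, minus strand), written 5′ to 3′ on the gene's strand. Capitals mark the motifs searched, which were the E-box CACGTG, the sterol regulatory element core TCACCCCAC and its looser form TCACNCCAC, the CCAAT box CCAAT and the GC box GGGCGG, each on both strands. A pair of E-boxes with 5 bases between them and a pair of AGGTCA with 4 bases between them were searched too.
Acly: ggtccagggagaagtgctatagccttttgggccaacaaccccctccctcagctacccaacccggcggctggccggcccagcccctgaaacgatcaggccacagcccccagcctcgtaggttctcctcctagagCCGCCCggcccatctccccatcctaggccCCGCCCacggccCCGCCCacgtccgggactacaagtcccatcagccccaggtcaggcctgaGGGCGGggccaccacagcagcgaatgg
The 4 capital runs are GC boxes, read as CCGCCC at positions -117, -88 and -76 and as GGGCGG at -27, where -1 is the last base before the start.

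Over the whole promoter table, windows of 300 bases (the 250 upstream bases and 50 from the start on) were searched at 32851 starts. A GC box was found in 35.7% of them, a CCAAT box in 37.4%, an E-box in 7.15%, TCACNCCAC in 1.24% and TCACCCCAC, which is one of its forms, in 0.551%. The pair of AGGTCA was found in 5 windows (0.0152%) and the pair of E-boxes in none. The table held 13 windows for 9 of the 10 lipogenic genes, and Scd1 had no entry. A CCAAT box was in 8 of the 13 windows, a GC box in 5, an E-box in 1 and TCACNCCAC in 1, and the other forms were in 0 of the 13. A match is a description of the letters and not a measured binding site. RefSeq starts inside the GENCODE span of the gene gave the windows of Acaca, Acacb, Elovl6 and Thrsp, both of Me1, and some of Srebf1 and Mlxipl. The single windows of Acaca and Elovl6 held none of the motifs.

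Me1, the cytosolic malic enzyme, is a source of NADPH (ENSMUSG00000032418, GRCm38 chr9:86581371-86695953, minus strand). Its counts were 2870 and 4572 in control and 7302 and 5737 in HuR hKO. Its levels were 216 and 341 CPM in control and 509 and 305 CPM in HuR hKO. Control mouse 2 was above HuR hKO mouse 4, so the groups overlapped. The means were 279 ± 89 CPM and 407 ± 145 CPM (SD, n = 2 each), with a log2 fold change of 0.55 ± 0.28 SE, a 95% interval from -0.09 to 1.19 and an edgeR adjusted p of 0.698. The value ran from 0.11 to 0.92 with 1 mouse left out, so the size of the difference rested on which mice were compared. An antisense gene, A330041J22Rik, shares 30 bases of exon with Me1 and had at most 3 counts.

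Acaca, acetyl-CoA carboxylase 1, makes the malonyl-CoA used for synthesis (ENSMUSG00000020532, GRCm38 chr11:84129672-84401651, plus strand). It had 1530 and 1517 counts in control and 2478 and 2658 counts in HuR hKO, or 115 and 113 CPM against 173 and 141 CPM. The control mice were close together, and both HuR hKO mice were above them. The mean was 114 ± 1.3 CPM in control and 157 ± 22 CPM in HuR hKO (SD, n = 2 each), 1.37 times as high. The log2 fold change was 0.46 ± 0.14 SE (95% interval 0.13 to 0.79, edgeR adjusted p = 0.511), and it ran from 0.29 to 0.60 with 1 mouse left out.

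Acacb, acetyl-CoA carboxylase 2, is the mitochondrial form whose malonyl-CoA restrains fatty acid oxidation (ENSMUSG00000042010, GRCm38 chr5:114146535-114250761, plus strand). Its counts were 668 and 1362 in control and 1554 and 1921 in HuR hKO. Its levels were 50.3 and 101.7 CPM in control and 108.4 and 102.0 CPM in HuR hKO. Control mouse 1 alone was low, and the other 3 libraries were nearly level. The groups were apart only by the distance between control mouse 2 and HuR hKO mouse 4, and they overlapped when the libraries were scaled by DESeq2's size factors, upper quartile factors or totals alone. The log2 fold change was 0.47 ± 0.28 SE (95% interval -0.17 to 1.11, edgeR adjusted p = 0.746). It was 1.07 without control mouse 2 (adjusted p = 0.0306, the only one of the 4 fits with 1 mouse left out to pass for Acacb) and 0.04 without control mouse 1.

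Fasn, fatty acid synthase, builds palmitate and is the pathway's central enzyme (ENSMUSG00000025153, GRCm38 chr11:120805846-120824547, minus strand). It had 5157 and 4727 counts in control and 10136 and 11806 counts in HuR hKO. The levels were 388 and 353 CPM in control and 707 and 627 CPM in HuR hKO. Both HuR hKO mice stood well above both control mice. The means were 371 ± 25 CPM and 667 ± 57 CPM (SD, n = 2 each), 1.8 times as high in HuR hKO. The fitted log2 difference was 0.85 ± 0.15 SE, with a 95% interval from 0.51 to 1.19 and an edgeR adjusted p of 0.137. The value ran from 0.74 to 0.93 with 1 mouse left out. The adjusted p was 7.04e-05 with DESeq2 and 0.0034 without the filter, within a range of 7.04e-05 to 0.177 over the settings that kept all mice and of 0.177 to 0.491 with 1 mouse left out.

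The 250 bases before the Fasn start (RefSeq, GRCm38.p6, chr11:120824548-120824797, minus strand) are shown because Fasn had the largest fitted change of the 10 genes.
Fasn: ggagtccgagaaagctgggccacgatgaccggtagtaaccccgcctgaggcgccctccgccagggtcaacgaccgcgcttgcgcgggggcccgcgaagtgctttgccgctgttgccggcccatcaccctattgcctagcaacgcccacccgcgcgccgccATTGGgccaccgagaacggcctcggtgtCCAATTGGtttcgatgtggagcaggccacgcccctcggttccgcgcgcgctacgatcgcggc
The capitals mark 3 CCAAT boxes, read as ATTGG at -90 and -59 and as CCAAT at -62, and the last of these overlaps the box at -59 by 2 bases. No GC box was found in the Fasn window. No CCAAT box was found in the 250 bases before Acly, but the rest of its window held a CCAAT box at 37, counted from the start.

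Elovl6, a fatty acid elongase, extends palmitate to stearate (ENSMUSG00000041220, GRCm38 chr3:129532355-129638495, plus strand). Its counts were 1094 and 1747 in control and 2702 and 2709 in HuR hKO. The levels were 82.3 and 130 CPM in control and 188 and 144 CPM in HuR hKO. The groups did not overlap, and the lower HuR hKO mouse was close to the higher control mouse. Its fitted log2 fold change was 0.64 ± 0.23 SE (95% interval 0.12 to 1.16, edgeR adjusted p = 0.574) and ran from 0.34 to 1.01 with 1 mouse left out. The antisense gene Gm35986, with 104 to 172 counts, shares 34 bases of exon with Elovl6, and if strand was not used in counting, reads within those bases cannot be assigned to either gene.

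Scd1, stearoyl-CoA desaturase, makes oleate and was by far the most abundant of the 10 genes (ENSMUSG00000037071, GRCm38 chr19:44394455-44407879, minus strand). Its counts were 179219 and 344661 in control and 305098 and 222160 in HuR hKO. The levels were 13488 and 25732 CPM in control and 21284 and 11794 CPM in HuR hKO. The highest level was in a control mouse and the lowest in a HuR hKO mouse, with one mouse of each group between them. The means were 19610 ± 8658 CPM and 16539 ± 6711 CPM (SD, n = 2 each), and the log2 fold change was -0.25 ± 0.37 SE (95% interval -1.10 to 0.61, edgeR adjusted p = 0.910). Its sign turned with the mice included, from -0.75 to 0.30 with 1 mouse left out. The paralogs Scd2, Scd3 and Scd4 had at most 140 counts in a library, with Scd2 the highest of them.

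Srebf1 encodes SREBP-1, which activates the lipogenic genes (ENSMUSG00000020538, GRCm38 chr11:60199089-60222581, minus strand). Its counts were 9509 and 9053 in control and 10490 and 17369 in HuR hKO. The levels were 716 and 676 CPM in control and 732 and 922 CPM in HuR hKO. HuR hKO mouse 4 was high, and HuR hKO mouse 3 was just above the controls. For Srebf1 the log2 fold change was 0.25 ± 0.16 SE (95% interval -0.13 to 0.63, edgeR adjusted p = 0.772), from 0.07 to 0.39 with 1 mouse left out. The counts cannot separate the isoforms SREBP-1a and SREBP-1c, which start at different sites, and Rai1 on the opposite strand, with 157 to 218 counts, shares 109 bases of exon with Srebf1.

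Mlxipl encodes ChREBP, the sugar-responsive activator of the pathway (ENSMUSG00000005373, GRCm38 chr5:135089890-135138382, plus strand). Its counts were 5969 and 5429 in control and 5708 and 6863 in HuR hKO. The levels were 449 and 405 CPM in control and 398 and 364 CPM in HuR hKO. Both HuR hKO mice were below both control mice, by little, and the groups overlapped when libraries were scaled by their totals alone. For Mlxipl the log2 fold change was -0.16 ± 0.14 SE (95% interval -0.49 to 0.16, edgeR adjusted p = 0.838), from -0.25 to -0.10 with 1 mouse left out. The counts join the isoforms of ChREBP that start at different sites.

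The sequence before the first Mlxipl start (RefSeq, GRCm38.p6, chr5:135089640-135089889, plus strand) is shown because it held the only E-box among the 13 windows.
Mlxipl: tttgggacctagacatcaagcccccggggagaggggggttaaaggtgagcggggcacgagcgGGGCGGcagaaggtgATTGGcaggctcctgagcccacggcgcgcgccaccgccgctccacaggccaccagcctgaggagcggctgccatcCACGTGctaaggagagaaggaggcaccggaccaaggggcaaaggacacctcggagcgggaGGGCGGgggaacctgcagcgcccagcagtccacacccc
The capitals mark in order a GC box at -188, a CCAAT box read as ATTGG at -173, the E-box CACGTG at -98 and a GC box at -38. The window of the second Mlxipl start, inside the gene, held the only match to TCACNCCAC, as TCACACCAC at -136.

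Thrsp, also called Spot 14, is a small protein that promotes lipogenesis and responds to thyroid hormone and feeding (ENSMUSG00000035686, GRCm38 chr7:97412938-97417730, minus strand). Its counts were 8499 and 9839 in control and 8664 and 19446 in HuR hKO. The levels were 640 and 735 CPM in control and 604 and 1032 CPM in HuR hKO. HuR hKO mouse 4 had the highest level of the 4 and HuR hKO mouse 3 the lowest, so the groups overlapped. For Thrsp the log2 fold change was 0.25 ± 0.24 SE (95% interval -0.30 to 0.81, edgeR adjusted p = 0.850), and it was -0.18 without HuR hKO mouse 4.

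**Figure D2:**
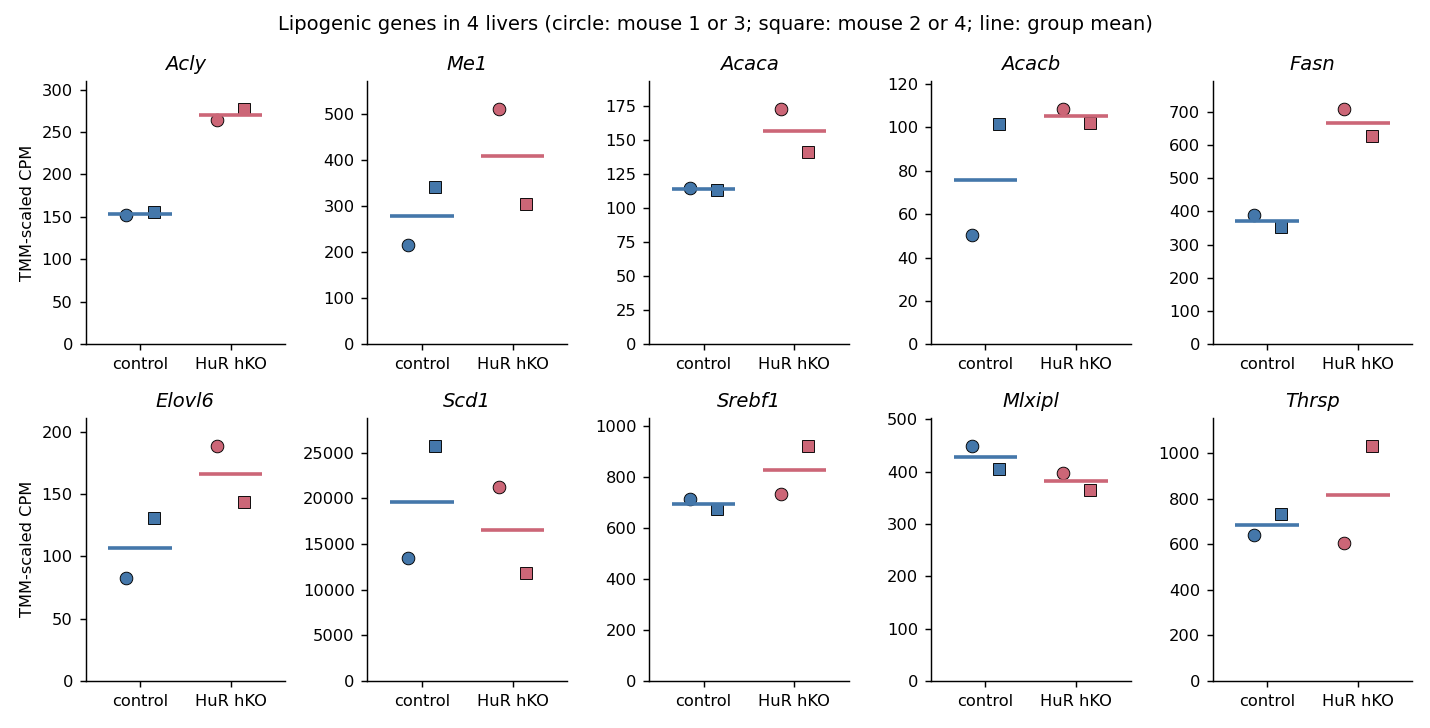
TMM-scaled CPM (vertical axis, from 0) of the 10 lipogenic genes in control and HuR hKO livers, with circles for mice 1 and 3, squares for mice 2 and 4, and a line at the group mean. The pairs of points are tight and apart for Acly and Fasn, while for Me1, Scd1 and Thrsp the groups overlap.

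The mice of one group differed more in some of these genes than in most others. The difference between the 2 control mice on the log2 scale was 1.02 for Acacb, 0.93 for Scd1, 0.66 for Elovl6 and 0.66 for Me1. Among 3793 well expressed genes the median such difference was 0.15, and 0.791%, 1.03%, 2.35% and 2.40% of them differed by at least as much. Between the 2 HuR hKO mice it was 0.85 for Scd1, 0.77 for Thrsp and 0.74 for Me1, against a median of 0.14. Acly differed by 0.02 between control mice and 0.07 between HuR hKO mice. In Acacb, Elovl6, Me1 and Scd1, control mouse 1 was the lower of its pair and HuR hKO mouse 3 the higher of its pair.

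**Figure D3:**
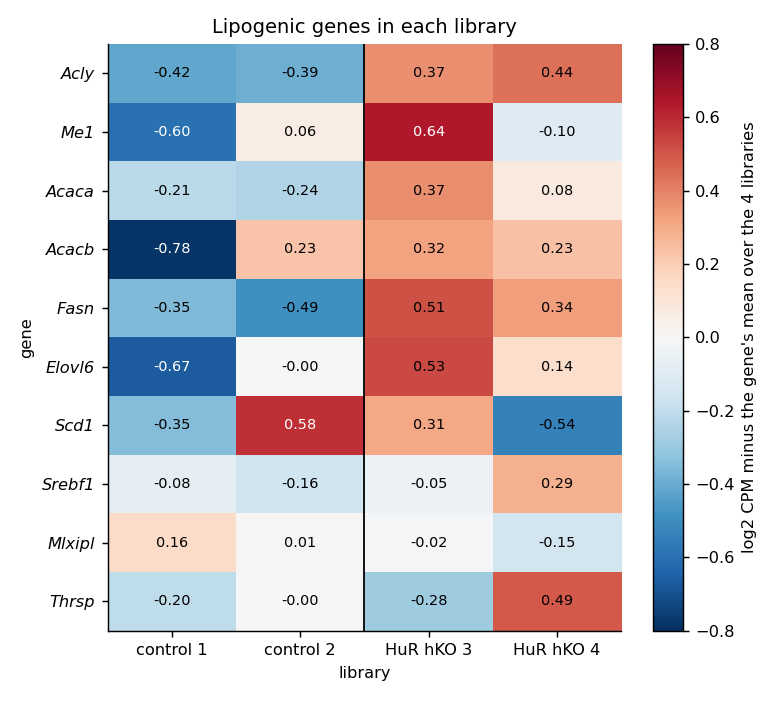
Log2 CPM of each lipogenic gene (rows) in each library (columns), minus the gene's mean over the 4 libraries, as colour and number. Acly and Fasn are below their mean in both control mice and above it in both HuR hKO mice, and Scd1 runs from 0.58 in control mouse 2 to -0.54 in HuR hKO mouse 4.

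Levels of different genes were compared per kilobase of exon. On that scale the order over the 4 libraries was Scd1, Thrsp, Srebf1, Me1, Mlxipl, Fasn, Acly, Elovl6, Acacb and Acaca. Scd1 had 4009 ± 1770 CPM per kilobase in control and 3381 ± 1372 in HuR hKO, and Thrsp, the next, had 314 ± 31 in control and 374 ± 138 in HuR hKO (SD, n = 2 each). At the other end, Acacb had 7.89 ± 3.8 in control and 10.9 ± 0.47 in HuR hKO and Acaca had 6.69 ± 0.078 and 9.19 ± 1.3. The ranges over the 4 libraries overlapped for Srebf1 and Me1, Me1 and Mlxipl, and Acacb and Acaca, and in each of these pairs the order held in 3 of the 4 mice, so it was not resolved. The ranges also overlapped for Fasn and Acly and for Acly and Elovl6, but there the order held in 4 of 4 mice. With the length of the longest annotated transcript in place of the exon union, Me1 and Mlxipl changed places, as did Acacb and Acaca. The control means then moved from 6.69 to 12.0 for Acaca, from 314 to 491 for Thrsp and from 77.2 to 118 for Mlxipl, so the printed levels depend on the length used.

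Together the 10 genes took 1.66 and 2.83% of the counts in control and 2.59 and 1.50% in HuR hKO. Scd1 alone took 1.38 and 2.53% in control and 2.21 and 1.13% in HuR hKO, so the sum followed Scd1. Without Scd1 the other 9 genes took 0.286 and 0.296% in control and 0.383 and 0.374% in HuR hKO. These shares did not overlap, and their means were 0.291 ± 0.0069% and 0.378 ± 0.0061% (SD, n = 2 each), 1.30 times as high in HuR hKO. Leaving out Scd1 was chosen after its values were seen, and no test was run on these sums.

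**Figure D4:**
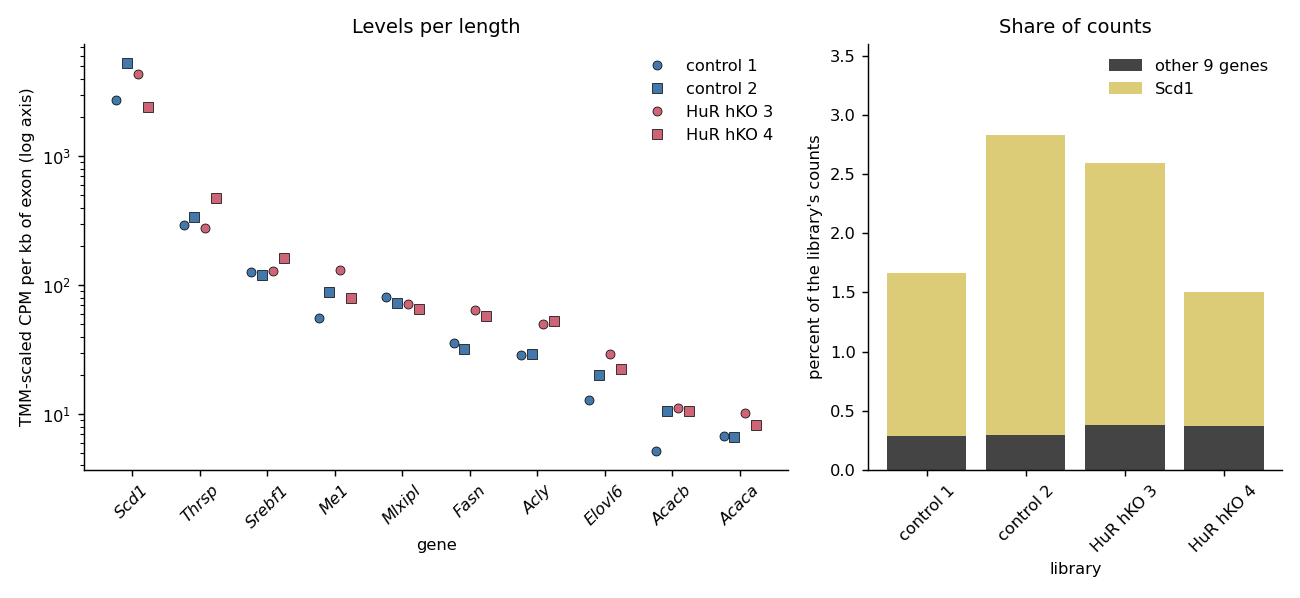
Left, level of each lipogenic gene in CPM per kilobase of exon on a log axis, 1 point per library. Right, percent of each library's counts on Scd1 and on the other 9 genes as stacked bars. Scd1 stands above the other genes in every library and makes up most of each bar, and the dark parts are larger in the HuR hKO libraries.

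Ratios within a library do not depend on how libraries are scaled. Relative to Acaca, the log2 ratio of Fasn was 1.75 and 1.64 in control and 2.03 and 2.15 in HuR hKO, and that of Acly was 0.41 and 0.46 in control and 0.61 and 0.97 in HuR hKO. For both genes the HuR hKO libraries were above the controls, by a mean of 0.40 for Fasn and 0.36 for Acly, as in 1.54% of the 13000 genes tested other than Acaca. That share is low because Acaca was itself higher in HuR hKO. The ratios restate the fitted log2 fold changes of 0.85 (Fasn) and 0.81 (Acly) and are no further support. The ratio of Mlxipl to Acaca was 1.96 and 1.84 in control and 1.20 and 1.37 in HuR hKO, lower by a mean of 0.62 without overlap. Most of that difference lay in Acaca, with a fitted log2 fold change of 0.46 against -0.16 for Mlxipl, and 66.9% of all genes were lower relative to Acaca without overlap, so it is no result about Mlxipl. For Me1, Acacb, Elovl6, Scd1, Srebf1 and Thrsp the ratios of the groups overlapped.

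The other genes of the pathway were read from lists of named genes. In none of these lists did a gene pass an adjusted p under 0.05 with edgeR, DESeq2 or limma-voom, and the counts given here are at an unadjusted p under 0.05 in edgeR, where 0 genes of any list were lower. Over all genes tested, 4.04% were higher by that rule. Among 13 ChREBP partners and targets, 5 were higher against that share, Tkfc, Pklr, Khk and Fgf21 among them, the median log2 fold change was 0.20, and DESeq2 counted 4. Tkfc and Khk, enzymes of fructose use, were at 485 and 489 CPM in control and 655 and 681 CPM in HuR hKO, and at 650 and 840 CPM in control and 986 and 1126 CPM in HuR hKO. Pklr, the liver pyruvate kinase, was at 413 and 410 CPM in control and 602 and 515 CPM in HuR hKO. Their log2 fold changes were 0.46 ± 0.14 (Tkfc), 0.50 ± 0.18 (Khk) and 0.44 ± 0.15 (Pklr) SE, with edgeR adjusted p of 0.493, 0.574 and 0.548. In all of them both HuR hKO libraries were above both controls, as in 19.3% of all genes tested. They were named for their p in the same libraries, so this adds no support. Fgf21, a liver hormone, had 13 and 24 counts in control and 47 and 51 counts in HuR hKO (log2 fold change 1.10 ± 0.40 SE, edgeR adjusted p = 0.574), and it was the only gene of this list past the study's threshold. The fitted value was negative for 3 of the 13, with log2 fold changes of -0.30 for Mlxip, whose groups were apart, -0.19 for G6pc and -0.05 for Slc2a2, and none of the 3 passed. Over all genes tested, 18.8% were lower without overlap.

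The lists nearer to the enzymes gave 1 or 2 genes each, where 4.04% of all genes tested were higher, and counts of 1 are near that share and no result about a list. In the supply of acetyl-CoA and citrate, 1 of 14 genes was higher, Pdhb of the pyruvate dehydrogenase complex, with 143 and 143 CPM in control and 193 and 199 CPM in HuR hKO (log2 fold change 0.46 ± 0.12 SE, edgeR adjusted p = 0.427), and the list's median was 0.06, from -0.02 to 0.19 with 1 mouse left out. In NADPH supply, 1 of 10 genes tested was higher, Pgd of the pentose phosphate pathway, with 39.7 and 49.9 CPM in control and 62.2 and 63.6 CPM in HuR hKO (0.49 ± 0.15 SE, adjusted p = 0.490), and the median was 0.05, from 0.02 to 0.19 with 1 mouse left out. Among the genes that modify and esterify fatty acids, 2 of 12 tested were higher. They were the desaturase Fads2, with 317 and 415 CPM in control and 494 and 517 CPM in HuR hKO, and the acyltransferase Gpam, with 76.5 and 62.1 CPM in control and 85.4 and 91.7 CPM in HuR hKO. In both genes the groups were apart, but both were named for their p in the same libraries. Of the 12 genes tested, 4 were apart and higher, against 19.3% of all genes tested, and 0 were apart and lower.

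Among 9 genes that act on the acetyl-CoA carboxylases, 1 was higher, again near the share of 4.04% over all genes tested. It was Mid1ip1, a relative of Thrsp that promotes carboxylase activity, with 59.7 and 44.5 CPM in control and 72.0 and 80.5 CPM in HuR hKO (log2 fold change 0.55 ± 0.17 SE, edgeR adjusted p = 0.490). Among 18 genes of SREBP-1 and LXR control, none was higher or lower in edgeR, DESeq2 or limma-voom at an unadjusted p under 0.05, and the median was 0.04, from 0.02 to 0.05 with 1 mouse left out. The smallest p of that list was that of Mbtps1, a protease that cleaves SREBPs, with 63.8 and 49.3 CPM in control and 49.8 and 44.4 CPM in HuR hKO. Across all the pathway, feeding and clock lists 11 of 97 genes tested (11.3%) had an unadjusted p under 0.05 in either direction, against 7.43% of all genes tested. Without the filter on low counts, 13 were higher and 2 lower among 102 genes (14.7%), against 6.84% of all genes in that fit. The count was 5 (5.15%, against 4.18% of all genes) without HuR hKO mouse 4 and 14, of which 3 were lower, without control mouse 2 (14.4%, against 10.7%).

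Feeding and time of day also act on lipogenic genes, so their marker genes were read too. Of 10 feeding state genes 1 was higher, the PPAR-alpha target Cyp4a14, with 158 and 71.2 CPM in control and 255 and 321 CPM in HuR hKO (log2 fold change 1.33 ± 0.32 SE, edgeR adjusted p = 0.352), and DESeq2 counted 2. A count of 1 is near the share of 4.04% over all genes tested, and the median of the list was 0.19, but 0.01 without control mouse 1 and -0.05 without HuR hKO mouse 4. HuR hKO mouse 4 was the highest of the 4 in Cyp4a10 (493 CPM, against 194 to 362), Igfbp1 (44.5 CPM, against 22.7 to 24.4) and Pck1 (2970 CPM, against 1909 to 2519), none of which passed. Of 12 clock genes tested none was higher or lower in edgeR, DESeq2 or limma-voom, and Clock had the smallest p, with 25.4 and 19.8 CPM in control and 19.6 and 14.8 CPM in HuR hKO. The part of feeding or sampling time in the levels of the lipogenic genes was not tested.

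Fat cells express the same enzymes, and their defining markers were low. Of 10 adipocyte markers 5 passed the filter on low counts, and the list summed to 137 and 233 CPM in control and 147 and 201 CPM in HuR hKO. The defining markers Adipoq, Plin1, Lep and Retn were under 1 CPM in every library, with 0 counts of Adipoq in HuR hKO mouse 3 and of Plin1, Lep and Retn in control mouse 2. The other markers of the list were not all low, with Cfd at 64.5 to 129 CPM, Lipe at 25.8 to 47.0 CPM and Cidec at 25.5 to 40.2 CPM. HuR hKO mouse 4 stood apart in the low markers, with 14 counts of Adipoq, 9 of Plin1, 6 of Lep, 10 of Retn and 7 of Acvr1c, against 0 to 4 in the other libraries. Fabp4, which macrophages and endothelium express too, was at 8.58 and 7.24 CPM in control and 10.1 and 16.0 CPM in HuR hKO (unadjusted p under 0.05), highest in the same mouse. Over all genes tested, 4.04% were higher at that p, and a count of 1 is no result about a list. Of the markers of other liver cells, Col3a1 and Col1a1 of 6 stellate cell genes and Spp1 of 4 tested cholangiocyte genes were higher at that p. None of the 6 Kupffer cell, 6 endothelial, 3 tested lymphocyte, 1 tested neutrophil and 8 hepatocyte genes was, in edgeR, DESeq2 or limma-voom. Cd3e, with 4 and 5 counts in control and 11 and 15 in HuR hKO, and Cd79a, with 5 and 22 against 30 and 35, did not overlap between the groups, and the median over the 3 tested lymphocyte genes was 0.96, from -0.09 to 1.86 with 1 mouse left out. All 6 endothelial genes had a fitted value above 0, with a median of 0.22, as did 6544 of the 13001 genes tested. In 3 of the 6 endothelial genes the groups were apart. For this count and that of the lymphocyte genes, 19.3% of all genes tested were apart and higher. The median of the cholangiocyte list was -0.23, and it turned from -1.17 without control mouse 2 to 0.63 without control mouse 1 and was 0.10 with at least 10 counts required in every library. Control mouse 1 stood apart in 3 of its markers, with 162 counts of Krt19 against 5, 7 and 34, 48 of Epcam against 15, 17 and 37, and 35 of Krt7 against 9, 8 and 13 in mice 2, 3 and 4, but not in Sox9, with 34 counts against 41, 37 and 65. The stellate list summed to 180 and 182 CPM in control and 195 and 247 CPM in HuR hKO. The part of these cells in the levels of the lipogenic genes was not tested.

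The genes whose levels ran most like the mean of the 10 over the 4 libraries were found by distance among 3783 genes, with log2 CPM centred on each gene's mean. They were Gpi1, Cbr1, Fdps, Tmem176a and Pcyt2, at distances of 0.043 to 0.089. The mean of the 10 ran from -0.35 in control mouse 1 over -0.04 in control mouse 2 to 0.27 in HuR hKO mouse 3 and 0.12 in HuR hKO mouse 4, while the 10 genes themselves lay at a median distance of 0.52 from it. Gpi1, a glycolytic isomerase, was at 219 and 267 CPM in control and 323 and 300 CPM in HuR hKO. The likeness rests on 4 libraries, and nothing about function is read from it.

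HuR binds AU-rich stretches of mRNA, so the pentamer ATTTA was counted in the annotated 3′ UTRs (GENCODE M21). It was present in 8 of the 10 genes, against 65.5% of the 11819 tested genes with a 3′ UTR, and absent in Mlxipl and Thrsp. The median 3′ UTR of the 10 was 1254 bases, longer than the 957 bases over all tested genes. Per kilobase the density was 3.66 in Me1, 3.37 in Acly, 1.598 in Elovl6, 1.44 in Scd1, 1.20 in Srebf1, 1.02 in Acaca, 0.996 in Fasn and 0.876 in Acacb. The median of the 10 was 1.11, just below the median of 1.20 over all tested genes. On the chromosomes, 4 of the 10 genes (Acly, Acaca, Fasn and Srebf1) lie on chromosome 11, which holds 8.07% of the genes tested.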

How the data were processed

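The authors deposited whole-number read counts per Ensembl gene for each liver, not normalized. The submitters' processing notes name RSEM and GRCm38, without role or version, and the use of strand is not given in the sources used here. Symbols, coordinates and exons came from GENCODE M21 (GRCm38), and promoter sequences from RefSeq (GRCm38.p6). All 4 columns were matched to mice by name, and 0 were left over. The labels give no batch. Every pair of libraries differed beyond counting error (chi-square per degree of freedom 21.15 to 32.7). Because this covers counting error only, it cannot show that the libraries came from different mice, which rests on the labels.

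Counts were filtered (filterByExpr, minimum 10 counts, total 15), scaled with TMM factors (0.957 to 1.04) and tested with the quasi-likelihood test of edgeR 4.0.16 (R 4.3.3), with Benjamini-Hochberg adjustment over 13001 genes. Alternatives were DESeq2 1.42.0, limma-voom (limma 3.58.1), other scalings and filters, and leaving out each mouse. CPM are on TMM-scaled library sizes, and means are given with the SD of 2 mice. Profiles used a prior count of 2 and genes with a mean log2 CPM of at least 5.

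Members and lists were chosen with earlier results of these data known. Listed genes are named if past the study's threshold or at an unadjusted p under 0.05, to 4 a list, and otherwise the gene with the smallest p. Mlxip, G6pc, Slc2a2, Cyp4a10, Igfbp1, Pck1 and the markers with values were named after their values were seen, and 1 listed gene is not reported here. A count of 0 allows up to 3 counts, 0.159 to 0.226 CPM on this scale, for counting error only.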

Additional observations from a re-analysis of the deposited data

How the results depend on the processing

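No paired analysis was possible because the mice of the 2 groups share no replicate number. Of the 10 lipogenic genes, 2 passed an adjusted p under 0.05 with DESeq2 and 2 without the filter on low counts, in place of 0, and leaving out 1 mouse gave 0 to 1. The number past the fold of 1.8 was 1 with limma-voom in place of 0, and 0 to 3 with 1 mouse left out. The median log2 fold change of the 10 was 0.26 to 0.62 with 1 mouse left out, lowest without control mouse 1, in place of 0.46. The listed pathway and state genes at an unadjusted p under 0.05 numbered 5 to 14 with 1 mouse left out, in place of 11. The log2 fold change of Scd1 ran from -0.75 to 0.30 with 1 mouse left out, and it was positive without control mouse 2 (0.30) and without HuR hKO mouse 4 (0.12). That of Thrsp ran from -0.18, without HuR hKO mouse 4, to 0.57. The count of genes at an unadjusted p was 3 to 6 with 1 mouse left out and 6 without the filter, in place of 4. Under the other scalings, the stricter filter, DESeq2 and limma-voom, each of the 10 fold changes kept its sign. The cause of these shifts was not tested. With 1 mouse left in a group, that mouse was assumed to vary like the other group. With 2 mice a group, a p that misses the threshold does not show that levels were equal.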
